A study of Mus musculus with 24 samples.

Results

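The Hox cluster genes are the members of the HoxA, HoxB, HoxC and HoxD clusters, and every gene symbol made of Hox, a cluster letter and a number was taken, which gave 39 of the 22926 symbols in the count tables. HoxA held 11 of them, HoxB 10, HoxC 9 and HoxD 9. Where a symbol had more than 1 line in the tables, as 5 of these genes did, the first line was used.

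Hox genes encode homeodomain transcription factors that give cells their position along the head to tail axis of the embryo. Within each cluster the genes are turned on in the order in which they lie on the chromosome, so low paralogue numbers come on first and in anterior tissue, and high numbers last and in posterior tissue. In pluripotent cells the clusters are largely silent and carry Polycomb marks, and retinoic acid, Wnt and Cdx proteins open them when the cells differentiate.

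RNA was sequenced from 24 libraries of mouse embryonic stem cell (ESC) clones, each library from 1 clone, to ask how loss of the Tet enzymes, which oxidise 5-methylcytosine, alters expression in pluripotency and after 6 days without leukaemia inhibitory factor (LIF), the cytokine that holds ESCs undifferentiated. All clones came from a feeder-free ESC line of strain 129/SVj that carries eGFP behind an internal ribosome entry site at Pou5f1 (Oct4), and they grew on gelatin in serum and LIF (D0) or without LIF for 6 days (D6). At each day there were 3 WT clones (O4.1, O4.2 and O4.13), 3 Tet1-/- clones (Tet1_KO_2.1, Tet1_KO_2.3 and Tet1_KO_2.4 at D0; Tet1_KO_2.1, Tet1_KO_2.2 and Tet1_KO_2.4 at D6), 2 Tet2-/- clones (Tet2_KO_3.10 and Tet2_KO_3.11), 2 clones lacking Tet1 and Tet2 (DKO, DKO_5.11 and DKO_5.12) and 2 clones lacking Tet1, Tet2 and Tet3 (TKO, TKO_8.4 and TKO_8.12). The knockouts were made by transient Cas9, which leaves insertions or deletions. For both Tet2-/- clones, and for Tet3 in both TKO clones, only 1 edited allele was found, and a large change of the other allele is possible. The WT clones were the parental line, so a genotype is represented by its clones alone.

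Libraries held 18400463 to 37290208 counts, so that 3 counts, the limit that a count of 0 allows, equalled 0.0814 to 0.151 counts-per-million (CPM). That limit covers counting error only. Tet2 RNA at D0 was 87.9 to 93.9 CPM in WT clones and 20.9 to 23.2 CPM in Tet2-/- clones. At D6 it was 12.3 to 16.0 CPM in WT and 15.9 and 16.6 CPM in Tet2-/-, so it did not set the Tet2-/- clones below WT. Tet1 RNA at D6 was 108 to 125 CPM in WT and 82.4 to 190 CPM in Tet1-/-, with overlap. Tet1 RNA at D0 was 220 to 431 CPM in WT, 93.4 to 358 CPM in Tet1-/-, 41.7 CPM in TKO_8.12 and 568 CPM in TKO_8.4, and an insertion or deletion need not lower the RNA. TKO_8.12 and TKO_8.4 also stood far apart in Hox counts at D6, as given below, so calls that involve TKO are also given without each clone. All other cells of a culture are in each library too, so fewer cells of a type and less Hox RNA per cell cannot be told apart. D0 and D6 counts came in separate tables, so the day and the table cannot be told apart either.

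In build mm9, the build of the counts, HoxA lies on the minus strand of chromosome 6, HoxB on the plus strand of chromosome 11 from 96055630 to 96229570, HoxC on the plus strand of chromosome 15 from 102751534 to 102867274, and HoxD on the plus strand of chromosome 2 from 74506367 to 74603200. The genes in a cluster lie close enough to share exon bases in the annotation. Hoxb7 and Hoxb8 share 1069 exon bases, and Hoxd3 and Hoxd4 share 1725. Antisense transcripts cover 49.4% of the exon bases of Hoxb2, 37.9% of Hoxb3 and 38.6% of Hoxa11. The sources used here do not say whether the counting used strand, so the values of these genes are uncertain.

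Of the 6 Hox genes that were lower in Tet2-/- than in WT at D6 (below), Hoxa13, Hoxc4, Hoxd1 and Hoxd9 have a promoter in the RefSeq table at hand (build GRCm38.p6), and their promoters are printed here to show what these genes carry around their starts. Each runs 5′ to 3′ on the strand of the gene, from 250 bases before the start to 50 after it, and capitals mark CpG dinucleotides, the sites at which Tet proteins act. The windows are chr6:52260831-52261130 (minus strand) for Hoxa13, chr15:103034145-103034444 (plus) for Hoxc4, chr2:74762730-74763029 (plus) for Hoxd1 and chr2:74697513-74697812 (plus) for Hoxd9.
Hoxa13: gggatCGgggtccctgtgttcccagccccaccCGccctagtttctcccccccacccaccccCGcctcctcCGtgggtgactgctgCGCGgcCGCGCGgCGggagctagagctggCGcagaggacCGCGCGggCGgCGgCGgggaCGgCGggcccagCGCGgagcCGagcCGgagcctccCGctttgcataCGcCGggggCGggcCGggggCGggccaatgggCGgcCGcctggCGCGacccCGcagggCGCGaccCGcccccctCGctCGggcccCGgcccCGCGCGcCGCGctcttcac
Hoxc4: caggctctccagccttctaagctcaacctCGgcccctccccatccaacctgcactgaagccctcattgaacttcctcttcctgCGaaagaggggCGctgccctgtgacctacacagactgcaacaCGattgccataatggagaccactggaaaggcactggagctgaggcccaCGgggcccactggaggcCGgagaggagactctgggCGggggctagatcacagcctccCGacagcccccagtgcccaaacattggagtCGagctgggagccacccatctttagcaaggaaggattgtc
Hoxd1: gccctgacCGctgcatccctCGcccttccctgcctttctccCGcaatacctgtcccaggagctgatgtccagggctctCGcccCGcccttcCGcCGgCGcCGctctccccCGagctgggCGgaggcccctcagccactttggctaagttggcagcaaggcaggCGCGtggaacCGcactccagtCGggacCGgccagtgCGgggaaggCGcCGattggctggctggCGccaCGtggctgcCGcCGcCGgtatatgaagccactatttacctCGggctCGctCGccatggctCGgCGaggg
Hoxd9: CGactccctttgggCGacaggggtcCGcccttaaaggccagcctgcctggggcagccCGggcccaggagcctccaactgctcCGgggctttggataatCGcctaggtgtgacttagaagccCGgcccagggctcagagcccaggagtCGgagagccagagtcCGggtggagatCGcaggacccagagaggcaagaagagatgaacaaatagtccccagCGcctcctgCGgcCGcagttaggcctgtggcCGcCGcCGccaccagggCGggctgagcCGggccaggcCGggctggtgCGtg
These 4 windows held 45, 9, 29 and 20 CpGs, so Hoxc4 had far fewer than Hoxa13. Promoters of 22 of the 39 Hox genes were in the table, with 24 starts. They held a median of 14.5 CpGs (4 to 45), against 7 over all 32851 promoters, and 12 of the 24 had an observed to expected CpG ratio over 0.6 (50%), against 35.8% of all. On either strand, a Hox-Pbx site (TGATNNAT) was present in 4 Hox promoters (16.7%, against 8.85% of all promoters), a retinoic acid receptor half-site (AGGTCA) in 7 (29.2%, against 16.3%) and a Cdx site (TTTATG) in 5 (20.8%, against 11.9%). TGATNNAT and TTTATG can share letters. Of the 4 printed windows only that of Hoxc4 held any of these motifs (AGGTCA). These matches describe letters and not bound sites.

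In undifferentiated cells the Hox genes were close to silent. At D0 only 4 of the 39 exceeded 1 CPM in any library, the highest value was 3.83 CPM, and 2 genes (Hoxa6 and Hoxd3) had no count in any library. Summed over the 39 genes, the libraries held 5.22 to 13.7 CPM. Most of this came from the 5′ ends of the clusters, since paralogues 9 to 13 took 68.6% to 82.2% of the Hox counts in the 12 D0 libraries. Per kilobase of exon, the highest mean levels at D0 were those of Hoxc13 at 0.824, Hoxb9 at 0.764 and Hoxd13 at 0.590 CPM per kb. The length was all exon bases of the gene in the annotation, while the counts were of 1 transcript line. The order of levels per kilobase is therefore approximate at both days. Hoxc13 is known for its part in hair and nail, Hoxd13 patterns digits, and Hoxb9 acts in the thoracic skeleton.

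By D6 the genes detected had spread over the clusters. Now 23 of the 39 exceeded 1 CPM in at least 1 library, although none did so in all 12, and no gene was at 0 throughout. Without TKO_8.12, 12 of the 39 did. The highest value was 7.69 CPM, for Hoxd9 in TKO_8.12. The mean level per kilobase was highest for Hoxb1, at 0.690 CPM per kb, and Hoxd1, Hoxd9 and Hoxb2 were at 0.640, 0.615 and 0.493 CPM per kb. These are means over 12 libraries of unlike genotype, and the order of neighbouring genes differs between libraries.

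**Figure D1:**
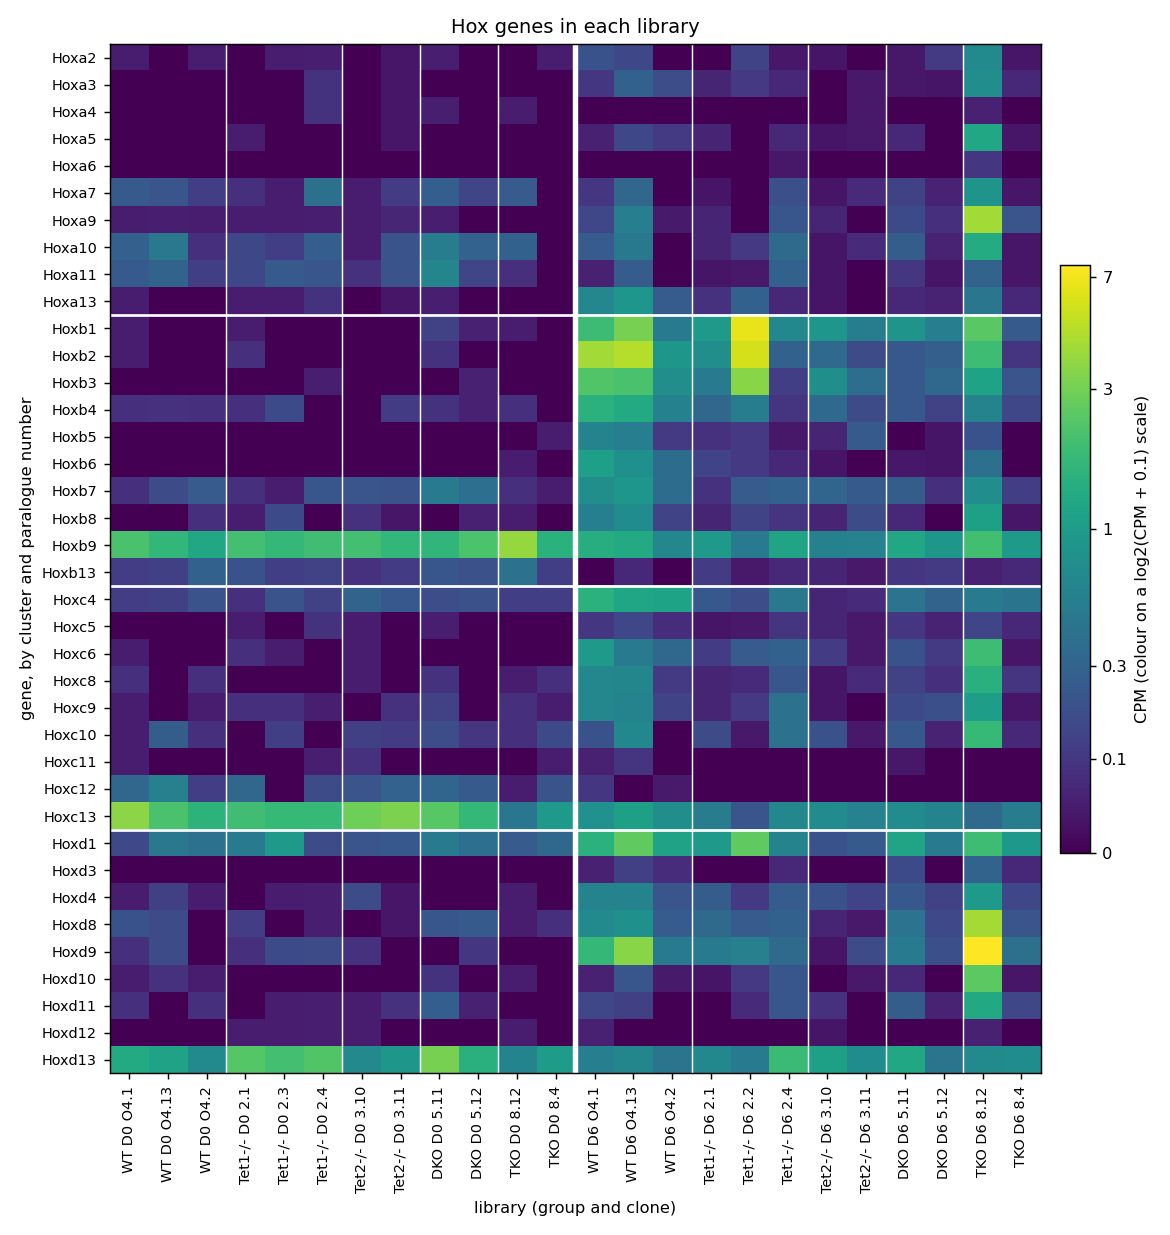
Level of 38 Hox genes (vertical axis, by cluster and paralogue number) in each of the 24 libraries (horizontal axis, by group and clone), coloured by CPM on a log2 scale after adding 0.1. D0 columns are dark outside a few genes such as Hoxb9, Hoxc13 and Hoxd13, and the brightest D6 column is TKO_8.12.

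Differences were tested with edgeR's quasi-likelihood test over all genes that passed a filter on low counts, and a gene was called when its Benjamini-Hochberg adjusted p was under 0.05 and its fitted change was over 2-fold. In the D0 libraries 6 Hox genes passed the filter, in the D6 libraries and in both days together 24 did, and 15 were tested nowhere. Passing needs counts in only some libraries, so the 18 genes that passed with D6 but not at D0 alone did so through the day at which they were high. Counts of called genes and medians over the 24 are therefore descriptions, and counts are given beside the share of all tested genes called in the same comparison.

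Between days, WT clones had Hox genes called in every cluster. Of 24 genes tested, 18 were higher at D6 and 1 was lower, while 20.7% of all 15639 genes tested were called higher and 13.3% lower. Among the higher genes were Hoxa13, Hoxb1 to Hoxb8, Hoxc4, Hoxc6, Hoxc8 and Hoxc9, and Hoxd1, Hoxd4, Hoxd8 and Hoxd9. By position, 10 of 10 tested genes of paralogues 4 to 8 rose and 3 of 9 of paralogues 9 to 13. At D0 alone none of paralogues 4 to 8 passed the filter, against 4 of paralogues 9 to 13. These counts therefore do not compare positions. By cluster, 8 of 9 rose in HoxB, 4 of 6 in HoxC and 4 of 5 in HoxD. Hoxd8 was near the threshold (adjusted p = 0.0490) and kept its call in 4 of 24 fits with 1 library left out, those without Tet1_KO_2.3 at D0 or without TKO_8.12, TKO_8.4 or WT O4.2 at D6. The median fitted change was 3.00 on the log2 scale, against 0.0146 over all genes. Of these 24 genes, 18 had passed the filter only through D6, so the median is a description.

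The anterior HoxB genes rose in WT. Hoxb1, which specifies the fourth hindbrain segment, stood at 0.0404, 0 and 0 CPM at D0 in clones O4.1, O4.2 and O4.13, and at 1.87, 0.508 and 3.09 CPM at D6. The groups did not overlap, and O4.2 was the lowest of the D6 clones. The counts rose from 1 to 148, a fitted log2 change of 6.63 ± 1.48 (SE, adjusted p = 0.000753). Hoxb2, a hindbrain gene that Hoxb1 activates, was at 0.0404, 0 and 0 CPM at D0 and 4.135, 0.907 and 4.68 CPM at D6 in the same clone order. Again O4.2 was the lowest at D6 and no values overlapped between the days. Its counts rose from 1 to 254, a ratio of CPM of 233 with an exact 95% interval of 41.4 to 9230 for counting error (log2 change 7.46 ± 1.62, adjusted p = 0.000667). Hoxb3, which acts in the hindbrain and the pharyngeal arches, had no count at D0 and 2.27, 0.762 and 2.13 CPM at D6, so it was at least 40.6-fold higher (133 against 0 counts, with 3 counts over the group as the floor; adjusted p = 0.000892). Without strand, reads of antisense RNA cannot be told apart from those of Hoxb2 and Hoxb3.

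Hoxb6, a gene of the trunk, was at 0 in the 3 WT clones at D0 and at 1.06, 0.363 and 0.796 CPM in O4.1, O4.2 and O4.13 at D6, at least 17.1-fold higher (56 against 0 counts, adjusted p = 0.000576). Hoxb5 was at least 9.78-fold higher (32 against 0 counts, adjusted p = 0.00298). Hoxc4, a gene of the neck and upper spine, had counts at both days, with 0.121, 0.206 and 0.130 CPM at D0 and 1.51, 1.16 and 1.21 CPM at D6. Its D6 clones lay close together and well above every D0 clone. The log2 change of Hoxc4 was 3.04 ± 0.39, with an adjusted p of 1.77e-06, the smallest of the 24 Hox genes in this comparison.

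At the 5′ ends the direction was mixed. Hoxc13 fell in WT, from 3.55, 1.56 and 2.12 CPM at D0 to 0.807, 0.762 and 1.08 CPM at D6 in O4.1, O4.2 and O4.13. Every D6 clone was below every D0 clone, and the log2 change was -1.44 ± 0.35 (adjusted p = 0.00146). Hoxb9 and Hoxd13 had log2 changes of -0.58 ± 0.39 and -0.95 ± 0.48 and were not called (adjusted p = 0.195 and 0.0922). Hoxa13, which patterns the hand and hindgut, rose from 0.0404, 0 and 0 CPM to 0.655, 0.254 and 0.891 CPM (log2 change 5.04 ± 1.02, adjusted p = 0.000311). Hoxd9, a gene of limb and spinal cord, rose from 0.0808, 0 and 0.173 CPM to 1.71, 0.508 and 3.50 CPM (log2 change 4.45 ± 1.10, adjusted p = 0.00177). For both genes O4.2 was the lowest D6 clone and the days did not overlap. With any 1 Tet2-/-, DKO or TKO library left out, at either day, 2 Hox genes were called lower in WT.

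Expressed as sums, the 39 genes went from 10.2, 6.42 and 8.72 CPM at D0 to 28.1, 11.3 and 34.2 CPM at D6 in O4.1, O4.2 and O4.13. The mean was 8.45 ± 1.91 CPM at D0 and 24.6 ± 11.9 CPM at D6 (SD, n = 3). The make-up changed as well, with paralogues 9 to 13 at 76.8% ± 7.25 of Hox counts at D0 and 26.8% ± 3.38 at D6, and paralogues 1 to 3 at 12.3% ± 4.90 and 42.6% ± 1.60. In CPM, paralogues 9 to 13 summed to 6.58 ± 2.02 at D0 and 6.74 ± 3.82 at D6, so their share fell without a lower sum. Paralogues 1 to 3 summed to 0.982 ± 0.151 and 10.6 ± 5.38 CPM. HoxB took 26.1% ± 3.48 of the Hox counts in WT at D0 and 44.9% ± 5.75 at D6.

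**Figure D2:**
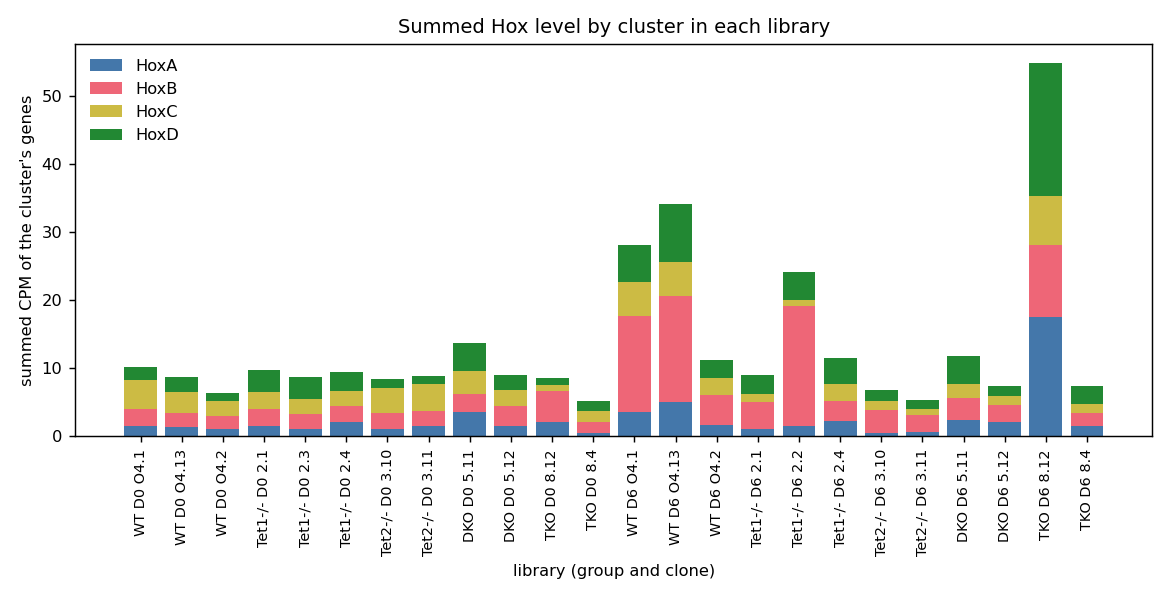
Summed CPM of the genes of each Hox cluster (stacked bars, colours for HoxA to HoxD) in each of the 24 libraries (horizontal axis, by group and clone). Sums at D0 stay between 5.22 and 13.7 CPM, while D6 sums run from 5.37 CPM in Tet2_KO_3.11 to 55.0 CPM in TKO_8.12.

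In Tet1-/- clones Hox genes were called in both directions. Of the 24 tested, 5 were higher at D6 (Hoxb1, Hoxb2, Hoxb3, Hoxc4 and Hoxd4) and 3 were lower (Hoxb9, Hoxc13 and Hoxd13), where 19.9% of all genes tested were called higher and 11.2% lower. Hoxb1 was at 0.0398, 0 and 0 CPM at D0 in Tet1_KO_2.1, Tet1_KO_2.3 and Tet1_KO_2.4, and at 0.958, 6.64 and 0.663 CPM at D6 in Tet1_KO_2.1, Tet1_KO_2.2 and Tet1_KO_2.4. Clone Tet1_KO_2.2 stood well above the other clones, and all D6 values were above those of D0. The log2 change was 7.21 ± 1.44 (adjusted p = 0.000302). Hoxb2 was at 0.0796, 0 and 0 CPM at D0 and at 0.754, 5.78 and 0.284 CPM at D6 (log2 change 6.13 ± 1.51, adjusted p = 0.00203), with Tet1_KO_2.2 again the highest. Hoxb3 was at 0, 0 and 0.0441 CPM at D0 and at 0.493, 3.50 and 0.126 CPM at D6 (log2 change 6.20 ± 1.53, adjusted p = 0.00246). Hoxc4 had a log2 change of 1.07 (adjusted p = 0.0462) and was not called by DESeq2, without the filter, or without D0 Tet1_KO_2.1, D0 Tet1_KO_2.4 or D6 Tet1_KO_2.4 (highest adjusted p = 0.392). Clone Tet1_KO_2.2 gave 72.6% of its Hox counts to HoxB (Wilson 95% interval 69.1% to 75.8%) and 81.0% to paralogues 1 to 3 (77.9% to 83.8%).

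Of 9 tested genes of paralogues 9 to 13, 3 fell in Tet1-/-. Hoxc13 fell from 1.95, 1.76 and 1.76 CPM at D0 to 0.522, 0.214 and 0.663 CPM at D6 (log2 change -1.94 ± 0.37, adjusted p = 0.000173), with no overlap. Hoxb9 fell from 2.03, 1.72 and 1.94 CPM to 0.929, 0.500 and 1.17 CPM (log2 change -1.12 ± 0.39, adjusted p = 0.0174). Hoxd13 fell from 2.39, 2.01 and 2.29 CPM to 0.667, 0.500 and 1.86 CPM (log2 change -1.13 ± 0.43, adjusted p = 0.0290), with clone Tet1_KO_2.4 close to the D0 clones. With the clone as a block, since most clones were sampled at both days, only 1 gene was called lower. Hoxb9 then had a log2 change of -0.93 (adjusted p = 0.0274), under 2-fold, and Hoxd13 one of -1.02 (adjusted p = 0.0502). Without D6 clone Tet1_KO_2.2, 1 gene was called lower, and without D0 clone Tet1_KO_2.1, 3 were called higher. Without TKO_8.12 or without TKO_8.4 at D6, 10 were called higher.

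In Tet2-/- clones 2 Hox genes were higher at D6 and 3 were lower, beside 12.7% of all genes called higher and 6.44% lower. Hoxb1 had no count at D0 and 0.893 and 0.523 CPM at D6 in Tet2_KO_3.10 and Tet2_KO_3.11 (at least 13.9-fold higher, adjusted p = 0.0222). Hoxb3 had no count at D0 and 0.777 and 0.384 CPM at D6 (at least 11.5-fold higher, adjusted p = 0.0342). Both clones moved upward for each of these genes. Hoxc4 was lower at D6, with 0.299 and 0.234 CPM at D0 and 0.0576 and 0.0697 CPM at D6 (log2 change -1.98 ± 0.60, adjusted p = 0.0169). The D6 values came from 4 counts, and the exact 95% interval of the ratio, 0.0586 to 0.761, covers counting error only. Hoxc13 fell from 2.90 and 3.18 CPM to 0.720 and 0.593 CPM (log2 change -2.20 ± 0.43, adjusted p = 0.000573), and Hoxb9 fell by 1.65 on the log2 scale (SE 0.49, adjusted p = 0.0121). No gene was called higher without either D0 clone or without D6 clone Tet2_KO_3.10, and 1 was called lower without either D6 clone. Hoxc4 and Hoxb9 also lost their calls without D0 Tet2_KO_3.10, and DESeq2 did not call Hoxc4. Without TKO_8.4 at D6, 5 were called lower.

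The DKO clones had 1 Hox gene higher at D6 and 2 lower, beside 18.6% and 10.6% of all genes. Hoxd4, a gene of the hindbrain border, had no count at D0 and 0.230 and 0.136 CPM at D6 in DKO_5.11 and DKO_5.12 (12 against 0 counts, at least 2.55-fold higher, adjusted p = 0.0288). Its exons overlap those of Hoxd3. Hoxc13 went from 2.399 and 1.72 CPM to 0.723 and 0.597 CPM (log2 change -1.64 ± 0.44, adjusted p = 0.00383). Hoxd13 went from 3.07 and 1.48 CPM to 1.25 and 0.434 CPM (log2 change -1.45 ± 0.54, adjusted p = 0.0290). Clone DKO_5.11 was above DKO_5.12 at each day for both genes. With the clone as a block 4 genes were called higher. No gene was called higher without D0 DKO_5.11, D0 DKO_5.12 or D6 DKO_5.11, and 2 were without Tet1_KO_2.2, TKO_8.4 or TKO_8.12 at D6. Without D0 DKO_5.11 or D6 DKO_5.12, 1 gene was called lower, and without D0 DKO_5.12, 4 were.

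TKO clones had 16 of the 24 genes higher at D6 and none lower, where 16.8% of all genes tested were called higher and 8.63% lower. Among the 16 were Hoxa9, Hoxa13, Hoxb1 to Hoxb4, Hoxb7, Hoxb8, Hoxc4, Hoxc6, Hoxc8, Hoxd1, Hoxd4, Hoxd8 and Hoxd9. Hoxd9 had no count at D0 and was at 7.69 CPM in TKO_8.12 and 0.400 CPM in TKO_8.4 at D6 (167 against 0 counts, at least 51.1-fold higher, adjusted p = 0.000764). Hoxa9, a posterior gene also active in blood progenitors, had no count at D0 and was at 4.19 and 0.215 CPM in TKO_8.12 and TKO_8.4 at D6 (at least 27.8-fold higher, adjusted p = 0.00116). Hoxb4 was near the threshold (adjusted p = 0.0496) and kept its call in 9 of 24 fits with 1 library left out. Hoxd9 and Hoxa9 were above D0 in both clones, but clone TKO_8.12 supplied most of the counts. Hoxc4 went from 0.124 and 0.125 CPM at D0 to 0.499 and 0.431 CPM at D6 in the same clone order (log2 change 1.85 ± 0.53, adjusted p = 0.00731), and here the clones were close.

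The TKO clones differed from each other more than from the WT mean. Summed over the 39 genes, TKO_8.12 held 55.0 CPM at D6 and TKO_8.4 held 7.38 CPM. Clone TKO_8.12 was above TKO_8.4 for 34 genes, below it for 3 (Hoxb13, Hoxc13 and Hoxd13) and equal, at 0, for 2 (Hoxc11 and Hoxc12). Of the 39 genes, 22 had their highest D6 value in TKO_8.12. Hoxd10 was at 2.496 CPM in TKO_8.12 and 0.0308 CPM in TKO_8.4, and Hoxc6 at 1.90 and 0.0308 CPM. Without TKO_8.12 at D6, 2 Hox genes were called higher at D6 than at D0 (Hoxc4 and Hoxd9) and 1 lower, beside 14.4% of all genes called higher. Without TKO_8.4 at D6, 25 of 32 tested were higher, beside 16% of all genes. Without D0 TKO_8.4, 9 were called higher and 1 lower, and without D0 TKO_8.12, 10 were called higher.

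**Figure D3:**
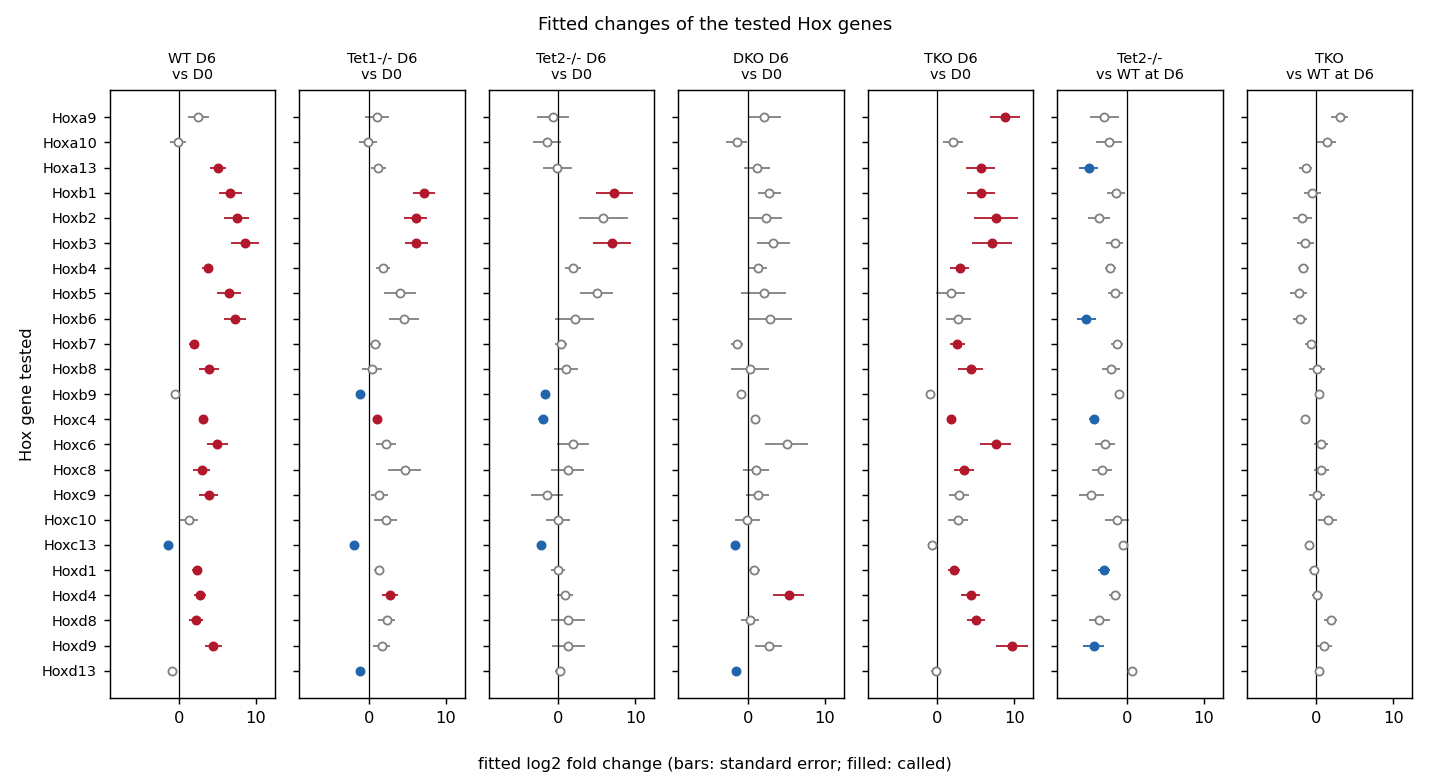
Fitted log2 fold change with its standard error (horizontal axis) of 23 tested Hox genes (vertical axis) in 7 comparisons, with filled points for called genes (red higher, blue lower) and open grey points for the rest. In WT 17 points are filled red, in TKO 15, and in the Tet2-/- against WT panel 5 are filled blue. Fitted values of genes without counts in a group depend on the prior count.

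At D0 1 of the 6 Hox genes tested was called in a knockout against WT. The comparisons of the 4 knockouts with WT share the same WT libraries, at this day and at D6. Tet1-/- against WT had no call (0.00692% of all genes called in either direction, 1 of 6 Hox genes and 12.6% of all genes at an unadjusted p under 0.05, lowest adjusted p = 0.210). Tet2-/- against WT had none either (2.37% of all genes called lower, no Hox gene and 29.2% of all genes at an unadjusted p under 0.05). DKO against WT likewise had no Hox call (0.0346% of all genes called in either direction, 2 of 6 Hox genes and 14.4% of all genes at an unadjusted p under 0.05, lowest adjusted p = 0.194). DESeq2 called no Hox gene in these 3 comparisons. Hoxd13 was at 1.33, 0.699 and 1.12 CPM in the 3 WT clones and at 2.39, 2.01 and 2.29 CPM in Tet1-/-, without overlap, but its log2 difference of 1.06 ± 0.32 was not called (adjusted p = 0.210).

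In TKO against WT at D0, Hoxc13 was the 1 gene called, and 2.12% of all genes tested were called lower. It was at 3.55, 1.56 and 2.12 CPM in WT O4.1, O4.2 and O4.13 and at 0.453 and 0.961 CPM in TKO_8.12 and TKO_8.4, so both TKO clones lay below every WT clone. The log2 difference was -1.77 ± 0.40 (adjusted p = 0.0204). In the other groups Hoxc13 was at 1.76 to 1.95 CPM in Tet1-/-, 2.90 and 3.18 CPM in Tet2-/- and 1.72 and 2.399 CPM in DKO. Without WT O4.13 the gene was not called (adjusted p = 0.0525). Its log2 difference was -1.33 without TKO_8.12 (adjusted p = 0.0487) and -2.40 without TKO_8.4 (adjusted p = 0.00309), and without TKO_8.4, 2 other Hox genes were called higher in TKO. In DKO against WT, 1 was called higher without either TKO clone.

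At D6 the Tet2-/- clones were the ones with Hox genes called against WT. Of 24 genes tested, 6 were lower in Tet2-/-, among them Hoxa13, Hoxb6, Hoxc4, Hoxd1 and Hoxd9, and none was higher, while 9.45% of all 15435 genes tested were called lower and 4.81% higher. The fitted difference was below 0 for 23 of the 24, with a median of -2.34 on the log2 scale against -0.0330 over all genes. A gene near 0 in Tet2-/- passes the filter only through other genotypes, so this count and this median are descriptions. The genes named came from all 4 clusters.

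Hoxc4 showed the clearest separation. At D6 it was at 1.51, 1.16 and 1.21 CPM in WT O4.1, O4.2 and O4.13 and at 0.0576 and 0.0697 CPM in Tet2_KO_3.10 and Tet2_KO_3.11. Every WT clone was far above both Tet2-/- clones, and the log2 difference was -4.28 ± 0.55 (4 against 100 counts, adjusted p = 0.00410). The other genotypes lay between, with 0.232, 0.178 and 0.473 CPM in Tet1_KO_2.1, Tet1_KO_2.2 and Tet1_KO_2.4, 0.427 and 0.298 CPM in DKO_5.11 and DKO_5.12, and 0.499 and 0.431 CPM in TKO_8.12 and TKO_8.4. None of these overlapped WT or Tet2-/-. Against WT, the log2 difference of Hoxc4 was -2.11 ± 0.38 in Tet1-/- (adjusted p = 0.318), -1.82 ± 0.43 in DKO (adjusted p = 0.176) and -1.46 ± 0.43 in TKO (adjusted p = 0.0904), none of them called. In these 3 comparisons no gene of any kind was called.

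Other genes called in Tet2-/- had few counts there. Hoxb6 was at 1.06, 0.363 and 0.796 CPM in WT O4.1, O4.2 and O4.13 and at 0.0288 and 0 CPM in Tet2_KO_3.10 and Tet2_KO_3.11 (1 against 56 counts). The ratio of CPM was 0.0222 (exact 95% interval 0.000552 to 0.129, counting error only; adjusted p = 0.0151). Hoxa13 had 1 count against 48 (ratio 0.0259, exact 95% interval 0.000642 to 0.151, adjusted p = 0.0156), with 0.0288 and 0 CPM in Tet2-/- and 0.254 to 0.891 CPM in WT. Neither gene overlapped between the groups. Hoxd9 was at 0.0288 and 0.174 CPM in Tet2-/- and 1.71, 0.508 and 3.50 CPM in WT (log2 difference -4.27 ± 1.37, adjusted p = 0.0401). Hoxd1, an anterior HoxD gene, was at 0.202 and 0.244 CPM in Tet2-/- and 1.51, 1.13 and 2.61 CPM in WT (log2 difference -2.98 ± 0.77, adjusted p = 0.0184). In each of these genes both Tet2-/- clones lay below every WT clone.

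Hoxb1, Hoxb2 and Hoxb3 were not called in Tet2-/- against WT. Hoxb1 was at 0.893 and 0.523 CPM in Tet2_KO_3.10 and Tet2_KO_3.11 and at 1.87, 0.508 and 3.09 CPM in WT, an overlap that came from WT O4.2 (log2 difference -1.37 ± 1.14, adjusted p = 0.379). Hoxb2 was at 0.345 and 0.174 CPM against 4.135, 0.907 and 4.68 CPM (log2 difference -3.61 ± 1.43, adjusted p = 0.0788). HoxB made up 48.9% ± 2.13 of the few Hox counts of Tet2-/- (SD, n = 2) and 44.9% ± 5.75 of those of WT (SD, n = 3), and the sums of the 39 genes were 6.11 ± 1.05 and 24.6 ± 11.9 CPM.

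The 6 calls rested on few clones. Without Tet2_KO_3.11 no Hox gene was called lower, without Tet2_KO_3.10 1 was, and without WT O4.13 2 were. Without TKO_8.12 11 were called, and without TKO_8.4 12 were, in fits that tested 25 and 30 Hox genes. Hoxd9 kept its call in 5 of 12 fits with 1 library left out. DESeq2 called 10.

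Tet1-/-, DKO and TKO had no Hox gene called against WT at D6. In each of these 3 comparisons 0% of all genes tested were called in either direction. The median log2 difference of the Hox genes was -1.20 in Tet1-/-, with 7 of 24 at an unadjusted p under 0.05 (12.6% of all genes), and DESeq2 called 1 gene lower. It was -1.60 in DKO, with 8 of 24 at an unadjusted p under 0.05 (14.6% of all genes). In TKO it was 0.11, with 5 of 24 at an unadjusted p under 0.05 (23.5% of all genes) and a lowest adjusted p of 0.0904, and DESeq2 called no gene in DKO or TKO. Without TKO_8.4, 5 Hox genes were called higher in TKO than in WT, and without TKO_8.12 none was called.

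Compared with the other knockouts at D6, Hoxc4 was lower in Tet2-/- each time. Against Tet1-/- it was the 1 Hox gene called (log2 difference -2.17 ± 0.59, adjusted p = 0.0445), with 4.48% of all genes called lower. That call was lost with DESeq2 (adjusted p = 0.0676), without the filter (adjusted p = 0.0541) and with title numbers as a block (adjusted p = 0.0880). Against DKO it was again the 1 gene called (log2 difference -2.45 ± 0.62, adjusted p = 0.0252), with 6.37% of all genes called lower. Against TKO 5 genes were called lower, beside 6.01% of all genes. Hoxa9 was at 0.0576 and 0 CPM in Tet2_KO_3.10 and Tet2_KO_3.11 and at 4.19 and 0.215 CPM in TKO_8.12 and TKO_8.4 (2 against 91 counts, ratio 0.0182 with exact 95% interval 0.00217 to 0.0677, adjusted p = 0.0408). Hoxd8 was at 0.0576 and 0.0349 CPM against 4.24 and 0.215 CPM (3 against 92 counts, ratio 0.0270 with exact 95% interval 0.00547 to 0.0815, adjusted p = 0.0252). Both intervals cover counting error only, and TKO_8.12 gave 84 of the Hoxa9 and 85 of the Hoxd8 counts in TKO. Over the alternative fits the log2 difference ran from -8.98 to -2.67 for Hoxa9 and from -6.38 to -2.13 for Hoxd8. Hoxd9 and Hoxc4 had log2 differences of -5.32 ± 1.42 and -2.82 ± 0.61 (adjusted p = 0.0334 and 0.0175). In each of these genes both Tet2-/- clones lay below both TKO clones.

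The counts of these 3 comparisons also moved with single clones. Against TKO the calls were lost without TKO_8.12 and without either Tet2-/- clone. Hoxc4 was not called against DKO without either DKO or either Tet2-/- clone. Against Tet1-/- no gene was called without Tet1_KO_2.1, WT O4.13, WT O4.1 or any 1 of the DKO and Tet2-/- clones, and 2 were without WT O4.2 or either TKO clone. Without Tet1_KO_2.4, Hoxc4 lost its call and another Hox gene was called, and Hoxc4 kept its call in 4 of 12 such fits.

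**Figure D4:**
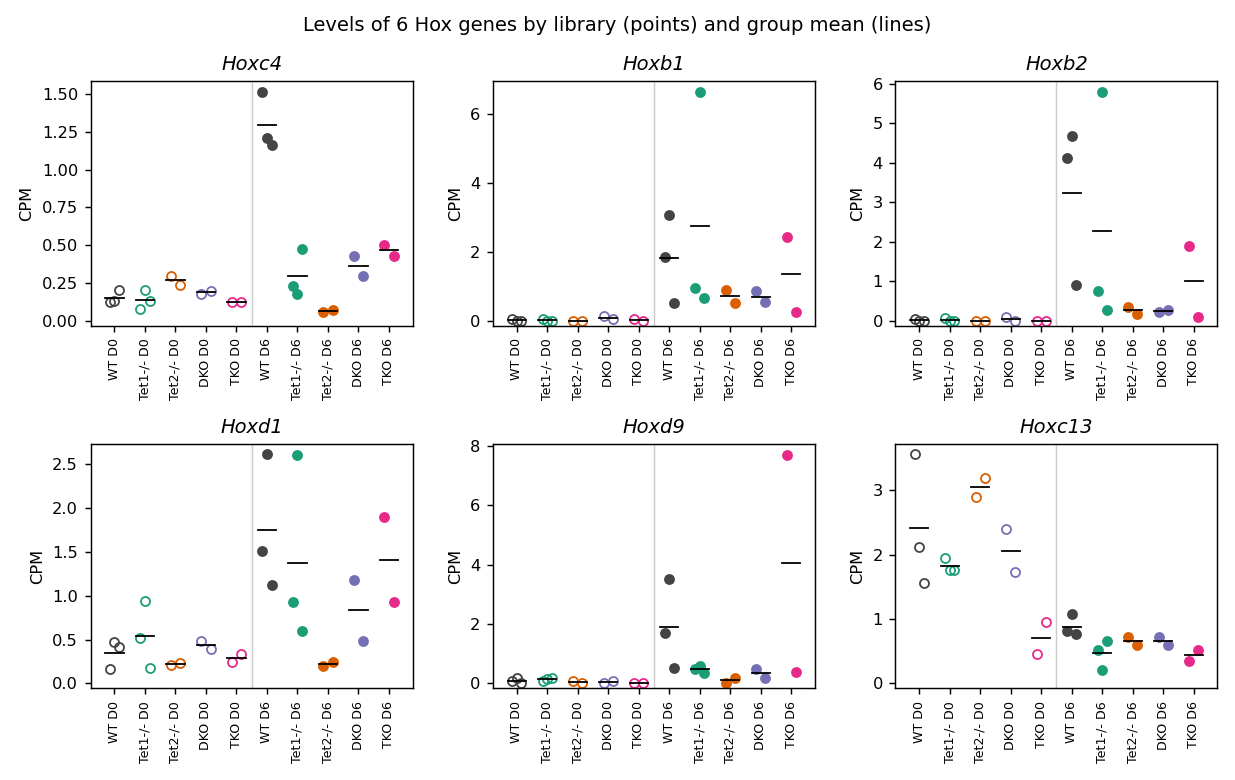
CPM (vertical axes, linear, scaled per panel) of Hoxc4, Hoxb1, Hoxb2, Hoxd1, Hoxd9 and Hoxc13 in each library (points, open at D0 and filled at D6) by group, with lines for group means. Hoxc4 lies at 1.16 to 1.51 CPM in WT at D6 and at 0.0576 and 0.0697 CPM in Tet2-/-. Single clones, Tet1_KO_2.2 for Hoxb1 and TKO_8.12 for Hoxd9, lie far above the rest of their groups.

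Whether the change between days itself differed between a knockout and WT was tested with an interaction contrast over all 24 libraries. In Tet2-/- 2 Hox genes had a lower change, among them Hoxc4 by -5.02 ± 0.71 on the log2 scale (adjusted p = 0.00121), where 5.13% of all genes were called lower. Hoxc4 rose in all 3 WT clones and fell in both Tet2-/- clones. It was called with any library left out. DESeq2 gave Hoxc4 no adjusted p in this contrast, at a log2 difference of -5.15. No Hox gene differed by this test in Tet1-/- (0% of all genes called in either direction, 2 Hox genes and 7.67% of all genes at an unadjusted p under 0.05), in DKO (0% of all genes called, 2 Hox genes and 8.02% of all genes at an unadjusted p under 0.05) nor in TKO (3.58% of all genes called, 0 Hox genes and 23.6% of all genes at an unadjusted p under 0.05), and DESeq2 called no Hox gene there.

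**Figure D5:**
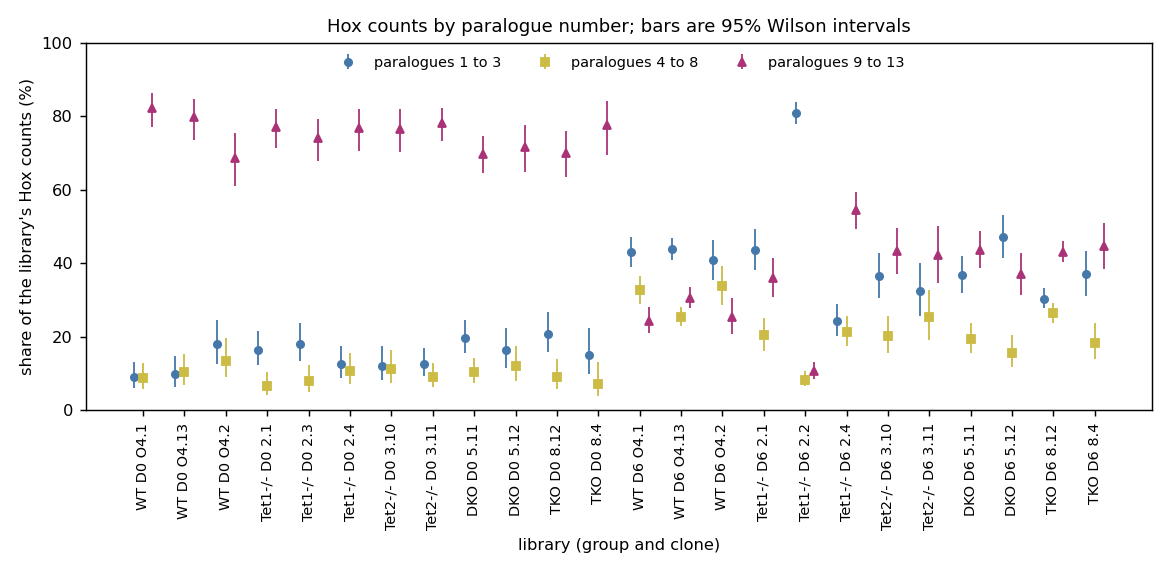
Share of a library's Hox counts (vertical axis, percent, 0 to 100) taken by paralogues 1 to 3, 4 to 8 and 9 to 13 (colours and symbols) in each of the 24 libraries, with Wilson 95% intervals that cover counting error only. Paralogues 9 to 13 hold 68.6% to 82.2% at D0, and paralogues 1 to 3 reach 81.0% in Tet1_KO_2.2 at D6.

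The shares of the paralogue classes at D6 were taken in each genotype. Paralogues 1 to 3 took 42.6% ± 1.60 of Hox counts in WT and 49.7% ± 28.8 in Tet1-/- (SD, n = 3 each). They took 34.5% ± 2.89 in Tet2-/-, 42.0% ± 7.41 in DKO and 33.8% ± 4.71 in TKO (SD, n = 2 each). Paralogues 9 to 13 took 26.8% ± 3.38 in WT and 33.6% ± 21.97 in Tet1-/-. For Tet2-/-, DKO and TKO the share of paralogues 9 to 13 was 42.7% ± 0.756, 40.4% ± 4.76 and 43.9% ± 1.02. The Tet1-/- clones lay far apart, with paralogues 1 to 3 at 43.7%, 81.0% and 24.3% in Tet1_KO_2.1, Tet1_KO_2.2 and Tet1_KO_2.4. No test was run on these shares.

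The 15 genes tested nowhere were Hoxa2 to Hoxa7, Hoxa11, Hoxb13, Hoxc5, Hoxc11, Hoxc12, Hoxd3 and Hoxd10 to Hoxd12. At D0 their values ran from 0 to 0.622 CPM, the latter for Hoxa11 in DKO_5.11. At D6 they ran from 0 to 2.496 CPM, the latter for Hoxd10 in TKO_8.12. Hoxa5, Hoxd10 and Hoxd11 exceeded 1 CPM, each in TKO_8.12. Hoxc12 had 69 counts over the 12 D0 libraries and 3 over the D6 libraries, while Hoxa6 had 0 and 3, Hoxa4 5 and 2, and Hoxd12 5 and 3.

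Genes that act with or on the Hox genes were counted in the same comparisons, in which 20.7% of all genes were called higher and 13.3% lower in WT between the days, and 4.81% higher and 9.45% lower in Tet2-/- against WT at D6. Of 11 posterior axis factors 9 rose in WT between the days and 5 were lower in Tet2-/- than in WT at D6, and of 9 TALE cofactors, the homeodomain partners of Hox proteins, 6 rose and 3 were lower (Meis2, Meis3 and Pknox2). Of 16 tested genes of the retinoic acid pathway 9 rose and 2 fell in WT, and 6 were lower and 2 higher in Tet2-/-. Of 4 tested caudal and ParaHox genes 1 rose (Cdx2) and 1 fell (Cdx1) in WT, and 1 was lower in Tet2-/- (Cdx2). Of 20 Polycomb and trithorax genes, which silence Hox clusters or keep them active, 2 rose and 2 fell in WT, and 1 was higher and 2 lower in Tet2-/-, shares close to or below those of all genes. The list held 24 genes, and Mll1, Mll2, Mll4 and Utx were not found under these symbols, so they are not covered. The median log2 change in WT was 5.19 for the axis factors, 2.195 for TALE cofactors, 1.16 for the retinoic acid pathway, 1.08 for the caudal genes and 0.05 for Polycomb and trithorax genes, against 0.0146 over all genes.

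Cdx2, which switches on posterior Hox genes, was at 15.3, 3.38 and 26.0 CPM in WT O4.1, O4.2 and O4.13 at D6 and at 0.432 and 0.697 CPM in Tet2_KO_3.10 and Tet2_KO_3.11 (log2 difference -4.74 ± 1.19, adjusted p = 0.0167). It was at 36.5 CPM in TKO_8.12 and 3.04 CPM in TKO_8.4. Any part of Cdx2 in the Hox differences was not tested. Cyp26a1, which degrades retinoic acid, had a log2 change of 10.25 ± 1.01 in WT between the days (adjusted p = 8.81e-08) and a log2 difference of -5.96 ± 1.03 in Tet2-/- against WT at D6 (adjusted p = 0.00556). Evx1, which lies beside HoxA, rose by 6.32 ± 0.79 in WT (adjusted p = 1.46e-06) and differed by -5.33 ± 1.07 in Tet2-/- (adjusted p = 0.00805). Over all 19 tested genes beside the clusters, 1 rose and 3 fell in WT between the days and 2 were lower in Tet2-/-, against 20.7%, 13.3% and 9.45% of all genes.

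Markers of cell types were counted in the same way. In WT between the days, 8 of 8 primitive streak and early mesoderm markers rose, as did 7 of 9 lateral and cardiac mesoderm markers, 4 of 6 tested endoderm markers (1 fell) and 6 of 7 trophectoderm markers, while 10 of 11 pluripotency markers fell and 1 of 4 tested neuroectoderm markers rose and 1 fell, beside 20.7% of all genes called higher and 13.3% lower. In Tet2-/- against WT at D6, 7 of 8 streak, 6 of 9 lateral mesoderm, 5 of 6 endoderm and 6 of 7 trophectoderm markers were lower, 2 of 4 neuroectoderm markers were higher, and 2 of 11 pluripotency markers were higher and 1 lower, beside 9.45% of all genes called lower and 4.81% higher. The summed streak markers at D6 were 337 to 802 CPM in WT and 357 to 1008 CPM in Tet1-/-, and 94.9 to 139, 372 to 499.8 and 222 to 489.5 CPM in Tet2-/-, DKO and TKO. The summed pluripotency markers were 866 to 1819, 964 to 1719, 2325 to 2543, 1279 to 1327 and 1803 to 1828 CPM in the same order. Hand2 and Elf5 had no count in either Tet2-/- library at D6. WT O4.2, the lowest of the WT clones in summed Hox level at D6, had the lowest streak sum (337 CPM) and the highest pluripotency sum (1819 CPM) of the 3. Between the days 7 of 8 streak, 6 of 7 trophectoderm, 3 of 9 lateral mesoderm and 1 of 6 tested endoderm markers rose in TKO. There 9 of 11 pluripotency markers fell and 1 rose, and 1 lateral mesoderm, 1 endoderm and 1 of 4 tested neuroectoderm markers fell. Of all genes, 16.8% were called higher and 8.63% lower in TKO between the days. At D6 TKO_8.12 held 489.5 CPM of streak and 11.5 CPM of endoderm markers, and TKO_8.4 held 222 and 18.7 CPM. The part of these markers in the Hox differences was not tested.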

How the data were processed

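RNA with poly(A) was selected from ESC clones, libraries were made with the NEBNext Ultra kit, and paired-end reads were mapped by the authors with STAR 2.5.1 to mm9 and counted on RefSeq transcripts. The deposited values are counts, whole numbers per transcript line without normalization, in 1 table per day. The counting program and its use of strand are not clear from the sources used here. Of the Hox genes, 1 is in the counts and sums but is not reported here. Members and gene lists were chosen with earlier results of these data known.

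Tables were joined by symbol, with 1 line, the first, per symbol. Counts were scaled by TMM (factors 0.918 to 1.10), filtered by filterByExpr (minimum count 10) and tested with edgeR 4.0.16 in R 4.3.3 by quasi-likelihood, with 1 coefficient per group, on D0 libraries (14456 genes), D6 libraries (15435) or both (15639, for changes between days and interactions). SE is the log2 fold change divided by the root of F. The method was tested on simulated data. Values per sample are printed for genes called in at least 1 comparison, for the highest genes per cluster and for the largest changes of each comparison, and listed genes were named among those with the largest called changes. CPM values were taken over the library total multiplied by its TMM factor. mm9 positions are from GENCODE, and promoters are from RefSeq (GRCm38.p6).

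Alternatives were DESeq2 1.42.0, its size factors, library totals, no filter, sums of all lines, blocks, and each library left out. Labels give the same clone at both days for 11 pairs (with a D6 DKO library, whose clone is written without its point, read as DKO_5.12), whose deviations from their group means correlated at 0.0813 to 0.193, so the clone was used as a block. Separate cultures are not stated, and p-values measure the spread between these clones.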

Additional observations from a re-analysis of the deposited data

Results flagged for a closer look

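The change between D0 and D6 differed between Tet2-/- and WT, by a test of that difference itself (edgeR's quasi-likelihood interaction contrast, Benjamini-Hochberg adjusted), for Hoxc4. The difference was -5.02 on the log2 scale (SE 0.71, adjusted p = 0.00121): the gene rose in 3 of 3 WT clones and fell in 2 of 2 Tet2-/- clones. Hoxc4 had few counts in Tet2-/- at D6, 4 over both clones. It was called with any 1 library left out. Groups held 2 or 3 clones, and single values far from their group were not tested for.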

How the results depend on the processing

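Of 67 calls of single Hox genes, 60 were kept under every setting other than a left-out library that gave an adjusted p, 25 with every library left out and 25 under all of these, and 0 reversed.

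DESeq2 called 1 gene lower in Tet1-/- and 10 in Tet2-/- against WT at D6, 2 in Tet2-/- against Tet1-/- and 2 against DKO, 9 against TKO, and 1 for the Tet2-/- interaction (it gave Hoxc4, at a log2 value of -5.15, no adjusted p). Library totals gave 2 lower in Tet2-/- against Tet1-/- and 2 against DKO, and between days 8 higher and 1 lower in Tet1-/- and 1 lower in DKO, and the median log2 change of all genes between days was then 0.139 to 0.207. Without the filter, 2 were lower in Tet2-/- against DKO and 3 in WT between days. Mean summed Hox CPM at D0 was 8.74 in Tet1-/- and 8.02 in Tet2-/- with library totals, and with sums of all lines 6.36, 5.90 and 5.94 in Tet1-/-, Tet2-/- and WT at D0 and 4.58 in Tet2-/- at D6.

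With the clone as a replicate block, 1 gene was lower in Tet1-/- and 4 were higher in DKO between days. It moved no other count by over 1.5 times. Title numbers shared across genotypes do not mark a pairing (r -0.0511 to 0.312 at D0 and -0.377 to 0.312 at D6). With them as a replicate block, Tet2-/- had 0 genes lower than Tet1-/- and 2 lower than DKO.

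With each library left out, counts ranged as follows. At D0, 0 to 1 were higher in DKO, and 0 to 2 higher and 0 to 1 lower in TKO. At D6, 0 to 12 were lower in Tet2-/- and 0 to 5 higher in TKO against WT, and 0 to 2, 0 to 2 and 0 to 20 were lower in Tet2-/- against Tet1-/-, DKO and TKO. Between days, 14 to 21 were higher and 1 to 2 lower in WT, 3 to 10 and 1 to 4 in Tet1-/-, 0 to 2 and 1 to 5 in Tet2-/-, 0 to 2 and 1 to 4 in DKO, and 2 to 25 and 0 to 1 in TKO. For the Tet2-/- interaction 1 to 2 were lower. Where 1 clone was left in a group, it was assumed to vary like the others. These ranges stand without the share of all genes called in the same fits.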

Other observations

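Noncoding genes inside the clusters gave 2 that passed the filter. Halr1, a transcript of the HoxA region, fell in WT from 8.81 ± 3.38 CPM at D0 to 0.178 ± 0.256 CPM at D6 (SD, n = 3; log2 change -5.51 ± 0.69, edgeR adjusted p = 1.44e-06). At D6 it was 1.72 ± 0.66 CPM in Tet2-/- (SD, n = 2), a log2 difference from WT of 3.16 ± 0.97 (adjusted p = 0.0348). Its change between days differed between Tet2-/- and WT by 3.85 ± 0.95 on the log2 scale (adjusted p = 0.0134). Haglr, which lies in HoxD beside Hoxd1, rose in WT from 0.168 ± 0.154 to 0.962 ± 0.436 CPM (log2 change 2.495 ± 0.79, adjusted p = 0.00939), and was at 0.167 ± 0.0889 CPM in Tet2-/- at D6 (log2 difference -2.48 ± 0.75, adjusted p = 0.0324). Strand was not stated, so reads of overlapping genes cannot be told apart.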
